A study of Mus musculus with 2 samples.

Results

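The Wnt pathway members described here were the ligands, receptors, antagonists, agonists and intracellular components matched by gene symbol: the Wnt, Fzd, Dkk, Sfrp and Rspo families together with Lrp5, Lrp6, Ror1, Ror2, Lgr5, Wif1, Ctnnb1, Apc, Axin1, Axin2, Nkd1, Nkd2, Lef1, Tcf7, Tcf7l1 and Tcf7l2. They comprised 57 of the 35557 probe sets on the array and 56 of the 19938 genes with a probe set of their own, Wnt4 having 2 probe sets. Tcf7 had no probe set with a single gene symbol and was not analysed here. RNA came from MEFs, mouse embryonic fibroblasts cultured in serum from embryos at 13.5 days post coitum. The MatDup.dist7 culture carried a maternal duplication of distal chromosome 7, in which both copies of the segment derive from the mother. The PatDup.dist7 culture carried the reciprocal paternal duplication, so neither culture was a normal control. The sources used here do not give the strain, the number of embryos or the breakpoint of the duplicated segment. Each genotype was measured on 1 array without a replicate.

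Wnt proteins are secreted lipid-modified ligands that bind Frizzled receptors together with the coreceptors Lrp5 and Lrp6. In the canonical branch the signal stops a complex of Axin and Apc from marking beta-catenin, the product of Ctnnb1, for destruction, and beta-catenin then activates genes with the TCF/LEF factors. Other Wnts act through Ror receptors on cell polarity and movement. In embryonic mesenchyme the pathway is known for its parts in limb outgrowth and in the choice between cartilage, bone and fibroblast fates.

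Imprinted genes of the distal segment differed in the direction their parental expression gives. Cdkn1c, a maternally expressed gene of distal chromosome 7, stood at an intensity of 1109 in MatDup.dist7 cells and 0.0132 in PatDup.dist7 cells, and the paternally expressed Igf2 at 7.48 in MatDup.dist7 cells and 1013 in PatDup.dist7 cells. Of 10 fibroblast markers, 9 lay above the signal filter of 66.4 on each array, the exception being Fap (4.04 in MatDup.dist7 cells and 23.1 in PatDup.dist7 cells). All 6 macrophage markers were above the filter on both arrays, summing to 2769 in MatDup.dist7 cells and 3209 in PatDup.dist7 cells. So were 4 of 5 skeletal muscle and 4 of 5 neural markers. The filter is the median of all intensities, and 12866 of the 19938 genes passed it on at least 1 array. Passing it therefore does not show that a cell type was present. Epithelial markers summed to 778 in MatDup.dist7 cells and 436 in PatDup.dist7 cells, with 6 of 6 higher in MatDup.dist7. Krt19 differed most among them (152 in MatDup.dist7 cells and 18.8 in PatDup.dist7 cells). Cartilage markers summed to 944 in MatDup.dist7 cells and 304 in PatDup.dist7 cells, with 5 of 5 higher in MatDup.dist7. Col2a1 was the largest part of that sum (599 in MatDup.dist7 cells and 141 in PatDup.dist7 cells). Above the filter were 5 epithelial and 3 cartilage markers in MatDup.dist7 cells, and 4 and 2 in PatDup.dist7 cells. Endothelial markers summed to 249 in MatDup.dist7 cells and 319 in PatDup.dist7 cells. Of these 5, 4 were lower in MatDup.dist7, with a median difference of -0.73, and Pecam1 was the 1 above the filter. The Y-linked Eif2s3y, Uty and Kdm5d were higher in MatDup.dist7 cells and Xist in PatDup.dist7 cells, so the sex of the embryos cannot be told apart from the genotype. The part of cell composition in the Wnt differences below was not tested, and fewer cells of a type cannot be told apart from less RNA per cell.

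Promoter windows are shown for Lef1 and Dkk2, neighbours on chromosome 3 that were both higher in PatDup.dist7, for Axin2, a known target of beta-catenin that was also higher in PatDup.dist7, and for Dkk1, a relative of Dkk2 with a difference of 0.19. Each window runs from 250 bases before to 50 after an annotated start (RefSeq, build GRCm38.p6) and is printed 5′ to 3′. Capitals mark the TCF/LEF core CTTTGNN, each N being A or T, searched on both strands.
Lef1, most upstream start, chr3:131110047-131110346 (+ strand): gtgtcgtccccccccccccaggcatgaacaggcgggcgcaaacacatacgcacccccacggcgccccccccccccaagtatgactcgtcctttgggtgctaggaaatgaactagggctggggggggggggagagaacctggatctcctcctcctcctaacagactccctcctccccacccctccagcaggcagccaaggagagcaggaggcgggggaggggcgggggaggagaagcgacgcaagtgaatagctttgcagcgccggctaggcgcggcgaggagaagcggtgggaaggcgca
Lef1, downstream start, chr3:131156044-131156343 (+ strand): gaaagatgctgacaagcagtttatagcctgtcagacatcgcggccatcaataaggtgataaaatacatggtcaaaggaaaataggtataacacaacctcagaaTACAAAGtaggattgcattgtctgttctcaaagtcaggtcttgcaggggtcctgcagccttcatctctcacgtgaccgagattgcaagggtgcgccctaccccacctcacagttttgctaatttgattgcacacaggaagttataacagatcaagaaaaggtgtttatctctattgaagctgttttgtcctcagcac
Axin2, chr11:108920099-108920398 (+ strand): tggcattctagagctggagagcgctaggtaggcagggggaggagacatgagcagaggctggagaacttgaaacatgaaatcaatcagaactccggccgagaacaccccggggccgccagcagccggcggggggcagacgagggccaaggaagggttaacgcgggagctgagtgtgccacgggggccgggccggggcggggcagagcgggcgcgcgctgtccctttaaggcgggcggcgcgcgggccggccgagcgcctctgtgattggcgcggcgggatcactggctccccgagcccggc
Dkk2, chr3:132085042-132085341 (+ strand): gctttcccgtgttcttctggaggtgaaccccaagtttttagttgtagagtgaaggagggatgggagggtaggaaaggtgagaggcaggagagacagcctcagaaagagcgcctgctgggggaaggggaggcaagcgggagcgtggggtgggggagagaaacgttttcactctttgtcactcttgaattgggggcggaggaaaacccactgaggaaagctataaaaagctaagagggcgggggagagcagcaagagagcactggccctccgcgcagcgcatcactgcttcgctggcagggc
Dkk1, chr19:30549447-30549746 (- strand): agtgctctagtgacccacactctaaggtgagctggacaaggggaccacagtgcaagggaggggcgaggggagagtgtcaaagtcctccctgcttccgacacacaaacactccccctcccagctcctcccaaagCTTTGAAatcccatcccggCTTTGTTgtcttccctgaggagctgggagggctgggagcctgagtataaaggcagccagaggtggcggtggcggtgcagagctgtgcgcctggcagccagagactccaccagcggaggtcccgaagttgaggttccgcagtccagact

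The core occurred in 1 of the 4 Lef1 windows listed, at the downstream start, beginning at base 104 of the window on the opposite strand. The Dkk1 window held 2, at bases 134 and 153. The Axin2 and Dkk2 windows held no match, which says nothing of sites elsewhere. Windows were listed for 37 of the 56 member genes. Of their 45 windows, 7 (15.6%) held a core, against 5544 of 32851 windows of all genes (16.9%). The member windows had a median of 26 CG dinucleotides against 7 over all windows, which cover 27025 genes and were not limited to those measured. The 9 windows of members at least 2-fold apart had a median of 21.

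Levels are intensities of probe sets on a linear scale, and differences are given as log2(intensity + 16), MatDup.dist7 minus PatDup.dist7, with the probe sets of Wnt4 averaged. The added 16 damps differences between weak signals and understates their size. With 1 array per genotype no test was possible, so a member was called different when the arrays were at least 2-fold apart on this scale. The only internal yardstick was the agreement between probe sets of 1 gene, whose log2 differences had a standard deviation of 0.40 (1722 probe sets of 642 genes). Each of these probe sets was above the signal filter of 66.4 on at least 1 array, so the 13 members under the filter are not covered. The value of 0.40 holds no variation between cultures.

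Most of the pathway lay within 2-fold between the cultures, while an R-spondin, several secreted regulators and Lef1 stood apart. Axin2 did so too, but with signals under the filter on both arrays. Of the 56 members, 47 lay within 2-fold, 3 stood at least 2-fold higher in MatDup.dist7 cells and 6 in PatDup.dist7 cells. The 3 were Rspo2, Wnt7a and Fzd3, and the 6 were Axin2, Dkk2, Wnt2b, Lef1, Wnt4 and Sfrp4. Over all 19938 genes, 4.47% passed the rule toward MatDup.dist7 and 3.16% toward PatDup.dist7, together 7.63%. The members' share was 5.36% toward MatDup.dist7, near the background, and 10.7% toward PatDup.dist7. Both directions together made 16.1% of the members. Epithelial and cartilage markers, given above, were higher in MatDup.dist7 together with Rspo2, Wnt7a and Fzd3. In every other marker list most genes were higher in PatDup.dist7, but none of these genes was 2-fold apart, unlike the 6 members. The counts were 4 of 5 endothelial, 7 of 10 fibroblast, 4 of 6 macrophage, 4 of 5 skeletal muscle and 4 of 5 neural markers. The median was only -0.09 for skeletal muscle and -0.22 for neural markers. The neural sum went the other way, with 1313 in MatDup.dist7 cells and 1185 in PatDup.dist7 cells. The part of any of these cell types in the Wnt values was not tested. The comparison with the background depended on how weak signals were treated. With 1 in place of 16 added, the same counts of 3 and 6 members stood against 10.9% of all genes toward MatDup.dist7 and 8.55% toward PatDup.dist7, so that the total of 16.1% lay under a background of 19.5%.

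**Figure D1:**
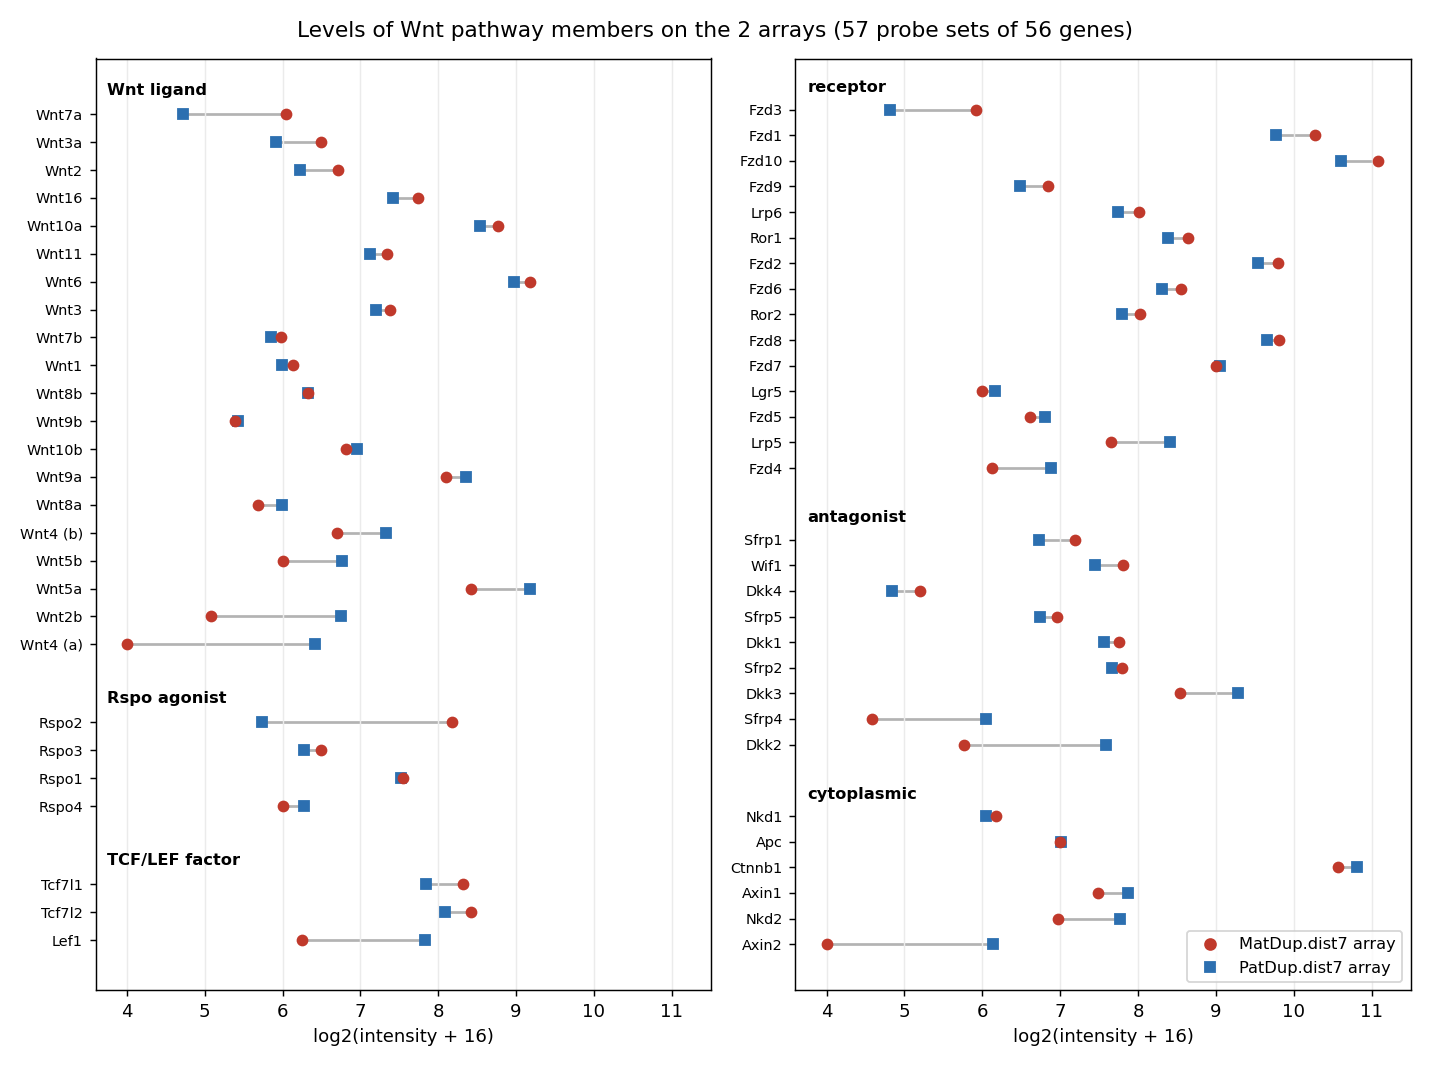
Levels of the 57 probe sets of the Wnt pathway members as log2(intensity + 16) (horizontal axis), by role, with circles for the MatDup.dist7 array and squares for the PatDup.dist7 array joined by a line for each probe set. Wnt4 (a) and (b) are its 2 probe sets, and each point is 1 array. Most pairs nearly coincide, and Rspo2 has the longest line with MatDup.dist7 on the right, while the lines of Wnt4 (a), Axin2 and Dkk2 are the longest with PatDup.dist7 on the right.

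Of the 56 members, 43 had a signal above 66.4, the median of all intensities, on at least 1 array. Among these 43, 1 passed 2-fold toward MatDup.dist7 (Rspo2) and 4 toward PatDup.dist7 (Dkk2, Wnt2b, Lef1 and Wnt4). Of these, Rspo2, Dkk2, Wnt2b and Lef1 were above 66.4 on 1 array each, the array where they were higher, so their difference itself let them pass the filter, and nothing is read from this count. The background over the 12866 genes above this filter was 2.72% toward MatDup.dist7, 2.4% toward PatDup.dist7 and 5.12% together. A member under the filter could still be called: Wnt7a, Fzd3, Axin2 and Sfrp4 were weak on both arrays, and their differences rest on signals under the median of all intensities.

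Among the 19 Wnt ligands, 3 were at least 2-fold apart (15.8%, against 7.63% of all genes). Wnt4, a ligand known for kidney tubule and female reproductive tract development, was measured by 2 probe sets that disagreed in size. One stood at an intensity of 0.00437 in MatDup.dist7 cells and 69.1 in PatDup.dist7 cells (log2 difference -2.41), and the other at 87.8 in MatDup.dist7 cells and 145 in PatDup.dist7 cells (-0.63). Both were lower in MatDup.dist7, and their average of -1.52 passed 2-fold through the first, whose MatDup.dist7 value lies at the bottom of the scale and does not show absence of the transcript. Wnt2b, a canonical ligand, stood at 18.0 in MatDup.dist7 cells against 92.0 in PatDup.dist7 cells, a difference of -1.67 or 3.18-fold. In the other direction Wnt7a, the ligand of dorsal limb ectoderm, stood at 50.1 in MatDup.dist7 cells and 10.4 in PatDup.dist7 cells (1.32).

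The ligands associated with the non-canonical branch did not move as one. Wnt5a, which signals through Ror2 in limb and palate outgrowth, stood at 327 in MatDup.dist7 cells and 566 in PatDup.dist7 cells (-0.76). Its close relative Wnt5b had nearly the same difference, with 48.1 in MatDup.dist7 cells and 92.3 in PatDup.dist7 cells (-0.76). Wnt11, a regulator of cell movement at gastrulation, was slightly on the other side with 146 in MatDup.dist7 cells and 123 in PatDup.dist7 cells (0.22). Both Wnt5 genes stood lower in MatDup.dist7 by 1.70-fold and 1.69-fold, under the 2-fold rule.

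The remaining ligands above the signal filter lay between -0.26 and 0.58. Wnt3a, a canonical ligand of the tail bud, stood at 73.9 in MatDup.dist7 cells and 44.3 in PatDup.dist7 cells (0.58). Wnt2, known for its part in lung formation, stood at 88.9 in MatDup.dist7 cells and 58.7 in PatDup.dist7 cells (0.49). Wnt16, a ligand known to protect cortical bone, had 197 in MatDup.dist7 cells and 156 in PatDup.dist7 cells (0.31), a difference inside the spread between probe sets. Wnt10a and Wnt6, both ectodermal ligands, lay 0.24 and 0.20 toward MatDup.dist7, Wnt10a with 422 in MatDup.dist7 cells and 354 in PatDup.dist7 cells and Wnt6 with 562 in MatDup.dist7 cells and 488 in PatDup.dist7 cells. Wnt3 had 151 in MatDup.dist7 cells and 131 in PatDup.dist7 cells (0.18). Wnt10b, which favours bone over fat, had 97.1 in MatDup.dist7 cells and 108 in PatDup.dist7 cells (-0.14), and Wnt9a, a ligand of forming joints, 258 in MatDup.dist7 cells and 313 in PatDup.dist7 cells (-0.26). The weak ligands Wnt1, Wnt7b, Wnt8a, Wnt8b and Wnt9b differed by -0.31 to 0.14, of which Wnt8b (64.5 in MatDup.dist7 cells and 64.1 in PatDup.dist7 cells) changed sign with quantile normalisation and with centring on the median of all genes. The median over the 19 ligands was 0.14, with 11 higher in MatDup.dist7 cells and 8 in PatDup.dist7 cells.

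Of the 15 receptors and coreceptors, 1 was at least 2-fold apart (6.67%, near the 7.63% of all genes), and the median was 0.24. That one was Fzd3, a Frizzled needed for axon guidance, at 44.7 in MatDup.dist7 cells and 12.1 in PatDup.dist7 cells (1.11). Most other Frizzleds leaned toward MatDup.dist7 by less than 1.5-fold. Fzd1 stood at 1219 in MatDup.dist7 cells and 861 in PatDup.dist7 cells (0.49), and Fzd10 at 2152 in MatDup.dist7 cells and 1546 in PatDup.dist7 cells (0.47). Both differences were little more than 1 standard deviation between probe sets of 1 gene (0.40), so they are not set apart from disagreement between probe sets. Fzd9 had 99.0 in MatDup.dist7 cells and 73.3 in PatDup.dist7 cells (0.37). The differences were 0.25 for Fzd2 (876 in MatDup.dist7 cells and 732 in PatDup.dist7 cells), 0.24 for Fzd6 (360 in MatDup.dist7 cells and 302 in PatDup.dist7 cells) and 0.15 for Fzd8 (881 in MatDup.dist7 cells and 793 in PatDup.dist7 cells). Fzd7 was nearest to 0, with 496 in MatDup.dist7 cells and 514 in PatDup.dist7 cells (-0.05). Fzd5 had 81.8 in MatDup.dist7 cells and 96.1 in PatDup.dist7 cells (-0.20), and Fzd4, also a receptor for Norrin in retinal vessels, was the Frizzled leaning furthest toward PatDup.dist7, with 53.5 in MatDup.dist7 cells and 102 in PatDup.dist7 cells (-0.77). Of the 10 Frizzleds, 7 were higher in MatDup.dist7.

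The pair of coreceptors went opposite ways. Lrp5, known for its control of bone mass, stood at 184 in MatDup.dist7 cells and 324 in PatDup.dist7 cells (-0.76), while Lrp6 stood at 243 in MatDup.dist7 cells and 197 in PatDup.dist7 cells (0.28). Their differences were thus 1.70-fold toward PatDup.dist7 and 1.21-fold toward MatDup.dist7. The receptor kinases for Wnt5a were close to each other, with Ror1 at 385 in MatDup.dist7 cells and 317 in PatDup.dist7 cells (0.27) and Ror2 at 245 in MatDup.dist7 cells and 206 in PatDup.dist7 cells (0.23). Lgr5, an R-spondin receptor and stem cell marker, was weak on both arrays at 47.7 in MatDup.dist7 cells and 55.7 in PatDup.dist7 cells (-0.17).

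**Figure D2:**
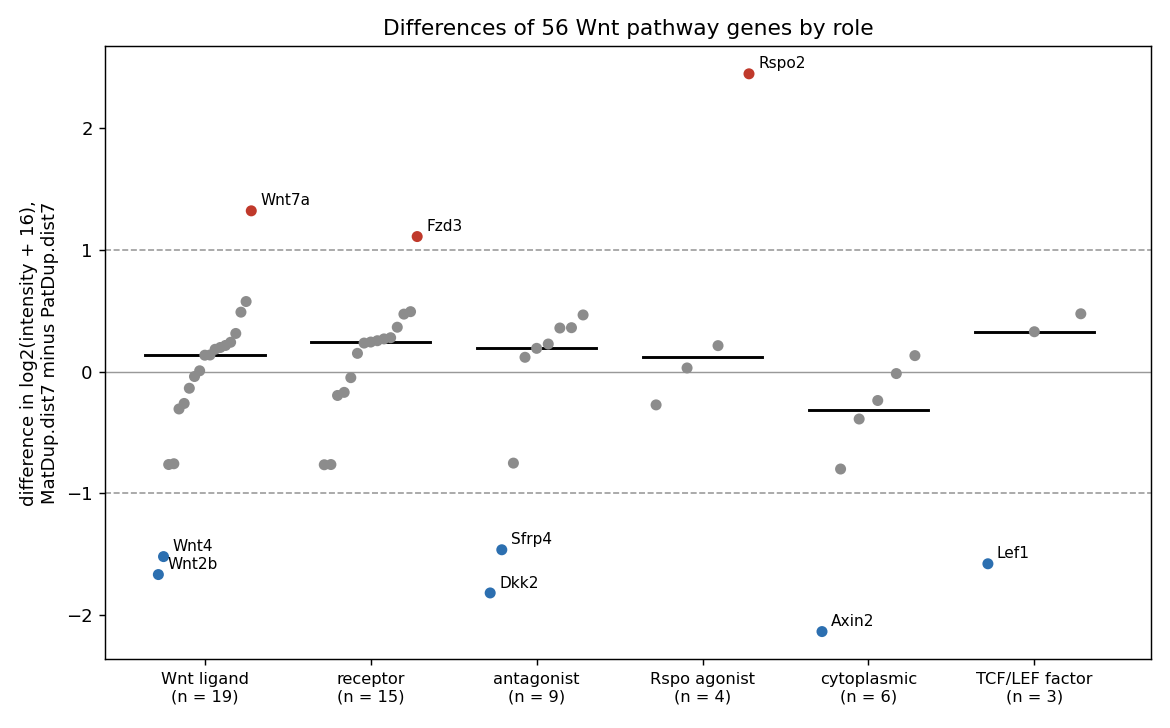
Difference in log2(intensity + 16), MatDup.dist7 minus PatDup.dist7 (vertical axis), for each of the 56 genes, grouped by role, with the median of each class as a black line and 2-fold as dashed lines. Each point is 1 gene from 1 array per genotype, so no error can be drawn. Rspo2, Wnt7a and Fzd3 lie above the upper dashed line and 6 genes below the lower one.

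R-spondins strengthen Wnt signals by removing the ligases Rnf43 and Znrf3, which otherwise clear Frizzleds from the surface, and 1 of the 4 stood far apart. Rspo2, a regulator of limb and lung development, stood at 274 in MatDup.dist7 cells and 37.2 in PatDup.dist7 cells. This difference of 2.45, or 5.46-fold, was the largest among the members with 16 added, while with 1 added Axin2 (-5.79) and Wnt4 (-3.42) exceeded the 2.85 of Rspo2. The Rspo2 difference stayed beyond 2-fold under all 8 alternatives that gave it a value (1.74 to 2.88). With 1 probe set for Rspo2, the signal filter and the probe set choices among these could not change its size. The other R-spondins did not share this difference. Rspo1 had 172 in MatDup.dist7 cells and 168 in PatDup.dist7 cells (0.03), Rspo3 had 73.8 in MatDup.dist7 cells and 61.4 in PatDup.dist7 cells (0.21), and the weak Rspo4 had 48.0 in MatDup.dist7 cells and 61.4 in PatDup.dist7 cells (-0.27).

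Among the 9 secreted antagonists, 2 were at least 2-fold apart (22.2%, against 7.63% of all genes), both lower in MatDup.dist7. Dkk2, which binds Lrp5 and Lrp6, stood at 38.5 in MatDup.dist7 cells against 176 in PatDup.dist7 cells, a difference of -1.82 or 3.53-fold. Sfrp4, a decoy with a Frizzled-like domain, was weak, with 8.05 in MatDup.dist7 cells and 50.4 in PatDup.dist7 cells (-1.46). Relatives of both genes behaved differently. Dkk1, the antagonist best known for head induction, stood at 200 in MatDup.dist7 cells and 173 in PatDup.dist7 cells (0.19), whereas Dkk3, a divergent family member, stood at 355 in MatDup.dist7 cells and 610 in PatDup.dist7 cells (-0.75). Dkk4 was weak at 20.7 in MatDup.dist7 cells and 12.6 in PatDup.dist7 cells (0.36).

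Of the other Frizzled-related decoys, none was 2-fold apart. Sfrp1 had 131 in MatDup.dist7 cells and 90.1 in PatDup.dist7 cells (0.47). Sfrp2, a gene of embryonic mesenchyme, had 205 in MatDup.dist7 cells and 188 in PatDup.dist7 cells (0.12), and Sfrp5 had 109 in MatDup.dist7 cells and 90.6 in PatDup.dist7 cells (0.23). Wif1, which binds Wnts directly, stood at 209 in MatDup.dist7 cells and 159 in PatDup.dist7 cells (0.36). The class median was 0.19, with 6 of 9 higher in MatDup.dist7, so the antagonists that stood furthest from 0 lay opposite to the majority.

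In the cytoplasm, Axin2 and Nkd2 leaned furthest toward PatDup.dist7, while beta-catenin and Apc differed by less than the spread between probe sets. Ctnnb1 stood at 1506 in MatDup.dist7 cells and 1778 in PatDup.dist7 cells (-0.24), and Apc at 112 in MatDup.dist7 cells and 113 in PatDup.dist7 cells (-0.02). Axin1, the constitutive scaffold, had 163 in MatDup.dist7 cells and 219 in PatDup.dist7 cells (-0.39). Axin2, the scaffold that beta-catenin itself induces, was listed at 0.00282 in MatDup.dist7 cells and 54.4 in PatDup.dist7 cells. Its log2 difference was -2.14, but the size is set by the pseudocount, at -5.79 with 1 added and -0.89 with 64 added, and the PatDup.dist7 value is itself under the median of all intensities. Nkd2, an inhibitor of Dishevelled, had 109 in MatDup.dist7 cells and 202 in PatDup.dist7 cells (-0.80), and its relative Nkd1 had 56.2 in MatDup.dist7 cells and 49.9 in PatDup.dist7 cells (0.13). Of the 6 members of this class, 5 were lower in MatDup.dist7, with a median of -0.31.

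The nuclear factors were split. Lef1, at once a partner and a target of beta-catenin and a gene of condensing mesenchyme, stood at 60.0 in MatDup.dist7 cells against 211 in PatDup.dist7 cells, a difference of -1.58 or 2.99-fold. Tcf7l1, which acts mainly as a repressor, leaned the other way with 303 in MatDup.dist7 cells and 214 in PatDup.dist7 cells (0.48). Tcf7l2 had 327 in MatDup.dist7 cells and 257 in PatDup.dist7 cells (0.33). Lef1, Dkk2 and Rspo2 were the 3 members that stayed at least 2-fold apart under each of the 8 alternatives tried for a single gene. Each has 1 probe set, so the signal filter and the probe set choices returned the same value and add no support. Only the pseudocount, floor and scaling settings could change their size.

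**Figure D3:**
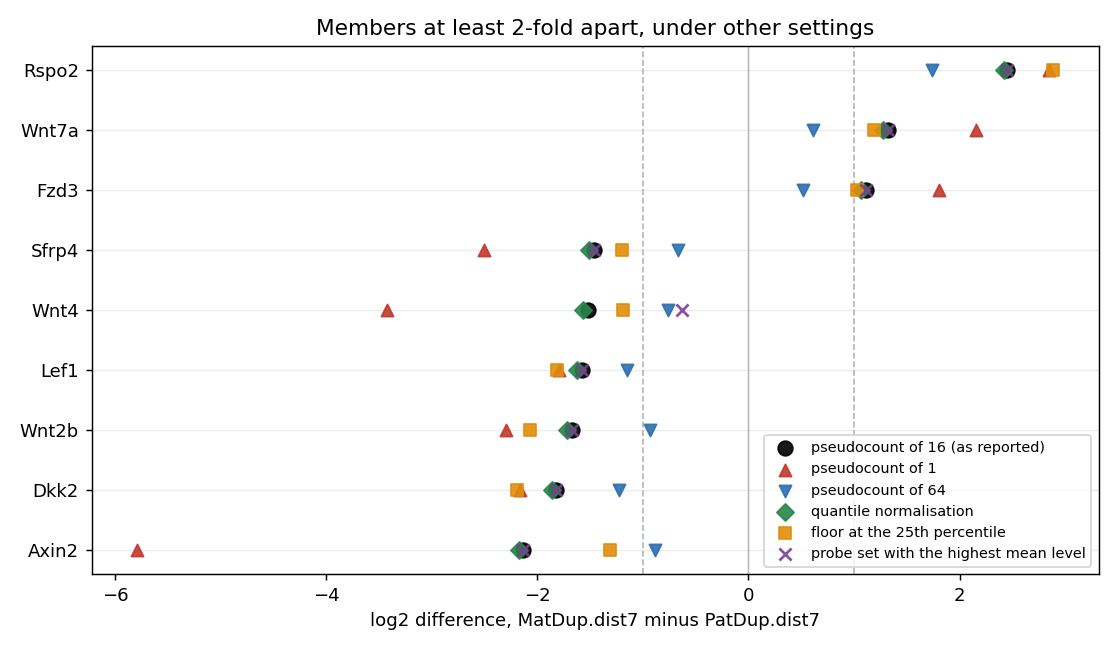
Log2 difference, MatDup.dist7 minus PatDup.dist7 (horizontal axis), of the 9 members at least 2-fold apart, under the reported setting and 5 of the alternatives, with 2-fold as dashed lines. Each marker is 1 gene under 1 setting. No marker crosses 0, but for a gene with 1 probe set a change of pseudocount or floor could not reverse its direction. With 64 added only Rspo2, Lef1 and Dkk2 stay outside the dashed lines, and Axin2 and Wnt4 spread most.

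Taking the members as a set, the median and the mean had opposite signs. Differences of any size were toward MatDup.dist7 in 33 of 56 members (58.9%), or 32 after quantile normalisation or centring, against 51.4% of all genes, and the median was 0.14 against 0.02 for all genes. Of the 47 members within 2-fold, 30 (63.8%) were higher in MatDup.dist7, against 50.8% of all genes within 2-fold. Beyond 2-fold, 3 members lay toward MatDup.dist7 and 6 toward PatDup.dist7, and the mean over the members was -0.07. With a 1.5-fold rule, 3 members (5.36%) passed toward MatDup.dist7 and 12 (21.4%) toward PatDup.dist7, against 15.5% of all genes toward MatDup.dist7 and 12.5% toward PatDup.dist7. The 6 members added by the looser rule, Wnt5a, Wnt5b, Fzd4, Lrp5, Dkk3 and Nkd2, had differences between -0.80 and -0.75. No member lay between 0.58 and 1.11 on the MatDup.dist7 side.

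**Figure D4:**
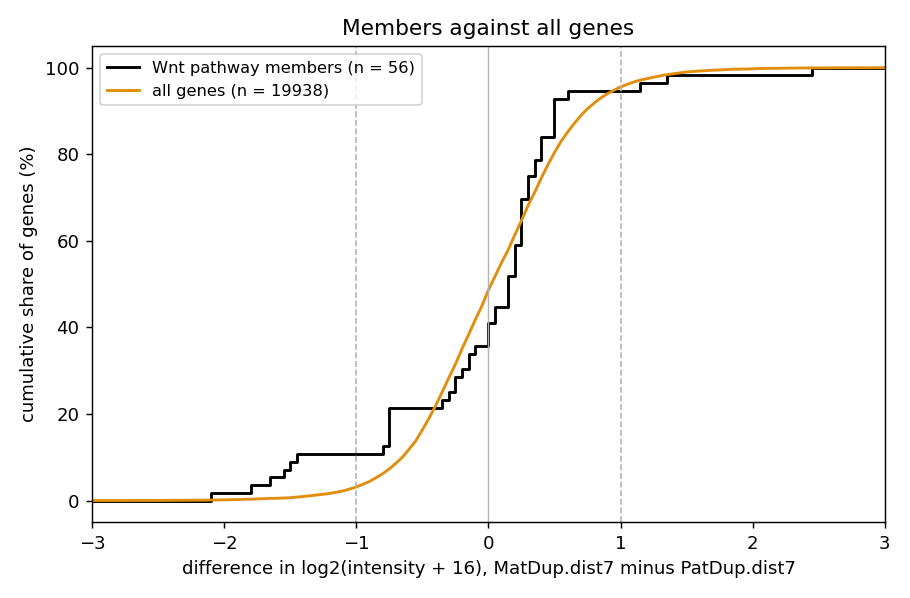
Cumulative share of genes in percent (vertical axis) at or below each difference in log2(intensity + 16), MatDup.dist7 minus PatDup.dist7 (horizontal axis), for the 56 members (black steps) and for all 19938 genes (orange line). Dashed lines mark 2-fold. The black steps lie above the orange line on the left, where 10.7% of members and 3.16% of all genes are at or below -1, and below it around 0.

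Members at most 15 places apart on a chromosome formed 9 pairs, of which 6 leaned the same way and 3 opposite ways, and 1 pair, Lef1 with Dkk2, was at least 2-fold apart in both genes. Lef1 and Dkk2 are close neighbours on chromosome 3 in the order of protein-coding genes (GRCm38.p6), with 4 genes between them, yet these 4 differed by only -0.39 to 0.58. Rspo2 and Fzd6 share a stretch of chromosome 15 with 12 genes between them, of which the 11 measured lay between -0.34 and 0.85, and none was 2-fold apart. The 4 adjacent ligand pairs, Wnt6 with Wnt10a, Wnt3a with Wnt9a, Wnt9b with Wnt3 and Wnt10b with Wnt1, were all within 2-fold, and only Wnt6 with Wnt10a leaned the same way. The same lean was shared by Wnt2 (0.49) with Wnt16 (0.31), by Dkk4 (0.36) with Sfrp1 (0.47) and by Apc (-0.02) with Wnt8a (-0.31), none of these 2-fold apart. Of the 9 genes between Wnt2 and Wnt16, 1 was 2-fold apart (-1.27), as was 1 of the 10 between Dkk4 and Sfrp1 (-1.73). Members on chromosome 7 numbered 3: Fzd4 (-0.77), Wnt11 (0.22) and Dkk3 (-0.75). In the order of its 2030 genes they take places 1199, 1247 and 1593, before Igf2 at 1994 and Cdkn1c at 2003, and whether any of them lies in the duplicated segment was not established.

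Feedback targets of canonical signalling, 10 genes of which 6 are members, did not differ in 1 direction. Axin2 and Lef1 were at least 2-fold lower in MatDup.dist7, and the other 8 lay between -0.80 (Nkd2) and 0.57 (Znrf3), with 5 of the 10 higher on each side and a median of -0.06. Rnf43, at 0.01, changed side with quantile normalisation and with centring. Notum, which inactivates Wnts by removing their lipid, had 38.7 in MatDup.dist7 cells and 43.7 in PatDup.dist7 cells (-0.13). The ligase genes Rnf43 (31.2 in MatDup.dist7 cells and 30.7 in PatDup.dist7 cells) and Znrf3 (46.1 in MatDup.dist7 cells and 25.7 in PatDup.dist7 cells), and the transcription factor gene Sp5 (22.7 in MatDup.dist7 cells and 14.4 in PatDup.dist7 cells), were weak on both arrays, as 7 of these 10 genes were.

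Of a wider list of 85 measured pathway genes outside the rule, 1 was 2-fold or more higher in MatDup.dist7 cells and 2 in PatDup.dist7 cells (3.53%, against 7.63% of all genes), and the median was -0.03. The 3 were Cdx1, a homeobox target (78.0 in MatDup.dist7 cells and 28.7 in PatDup.dist7 cells, 1.07), Msx1, a homeobox gene of limb and face mesenchyme (24.5 in MatDup.dist7 cells and 101 in PatDup.dist7 cells, -1.53), and Dact1, a Dishevelled-binding protein gene (69.5 in MatDup.dist7 cells and 156 in PatDup.dist7 cells, -1.01). All 6 other secreted inhibitors were lower in MatDup.dist7, also after quantile normalisation and centring, with a median of -0.53, and none reached 2-fold. Draxin stood furthest at 31.6 in MatDup.dist7 cells and 74.2 in PatDup.dist7 cells (-0.92). Frzb, a further Frizzled-related decoy, had 54.4 in MatDup.dist7 cells and 102 in PatDup.dist7 cells (-0.75). The 9 antagonists among the members did not share this lean. Of them, 6 were higher in MatDup.dist7, with a median of 0.19, and Dkk2, Dkk3 and Sfrp4 were lower. Over all genes, 51.4% were higher in MatDup.dist7. Among surface co-factors, Lgr6, an R-spondin receptor gene, was furthest from 0, with 115 in MatDup.dist7 cells and 54.7 in PatDup.dist7 cells (0.89). Its relative Lgr4 had 375 in MatDup.dist7 cells and 207 in PatDup.dist7 cells (0.81), while Lgr5, a member, lay on the other side (-0.17). The 12 surface co-factors lay between -0.79 and 0.89 with a median of 0.03, and 7 were higher in MatDup.dist7.

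In the secretion, surface, nuclear and planar polarity classes none was 2-fold apart. Wls, the carrier that brings Wnts to the cell surface, had 3230 in MatDup.dist7 cells and 3889 in PatDup.dist7 cells (-0.27). Tle2, a corepressor of TCF factors, was furthest from 0 among the nuclear genes at 33.2 in MatDup.dist7 cells and 81.5 in PatDup.dist7 cells (-0.99), and Celsr1 among the planar polarity genes at 67.3 in MatDup.dist7 cells and 26.9 in PatDup.dist7 cells (0.96). Of the 20 reported targets, Cdx1 and Msx1, given above, were 2-fold apart (10%, near the 7.63% of all genes). Ccnd1, a cyclin gene often reported as a target, had 997 in MatDup.dist7 cells and 824 in PatDup.dist7 cells (0.27), and Myc, a growth regulator, 535 in MatDup.dist7 cells and 761 in PatDup.dist7 cells (-0.50).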

How the data were processed

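RNA of 1 MatDup.dist7 and 1 PatDup.dist7 culture was hybridised to 1 array each. Per the labels' protocols, DNA was removed and the RNA was labelled with biotin by the whole-transcript protocol of Affymetrix. Affymetrix Expression Console is named in the submitters' processing notes. The sources used here do not give its version, background correction or normalisation. The deposited values are intensities on a linear scale. The authors' column medians were 68.6 in MatDup.dist7 cells and 64.2 in PatDup.dist7 cells, and 4.78% and 5.03% of the values were under 1.

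Gene symbols were taken from the array's annotation table, where 21789 probe sets carried 1 symbol, 1621 several and 12147 none. All 56 member genes were found in the RefSeq table. From the intensities, log2(intensity + 16) was computed with Python 3.11.15, numpy 2.4.6 and pandas 2.3.3, averaged over the probe sets of a gene and subtracted between arrays. The calculation was run on simulated arrays without noise or values near 0, which checks the arithmetic only. No test between genotypes was possible, and 1 array per genotype limits the precision of every value. Alternatives covered the pseudocount, scaling, floor, signal filter, probe set choice and fold rule. The members, lists and rules were chosen with earlier results of these data known. Every member was named, and from the wider list those at least 2-fold apart above the filter or the one furthest from 0 in a class. Frzb, Lgr4, Ccnd1, Myc and the feedback targets were chosen after their values were seen. Signal from related family members at a probe set was not tested.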

Additional observations from a re-analysis of the deposited data

How the results depend on the processing

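Each of the 9 members at least 2-fold apart kept its direction under the 8 alternatives for single genes that gave a value, and 3 of them (Rspo2, Dkk2 and Lef1) stayed 2-fold apart under all. For a gene with 1 probe set, another pseudocount or floor cannot reverse the direction. The signal filter and the probe set choices return the same value for such a gene, or none. The kept direction is therefore no independent support. With 64 added to the intensities, 1 member was 2-fold higher in MatDup.dist7 cells and 2 in PatDup.dist7 cells, with 0 genes of the wider list and 0.868% of all genes apart. With 1 added, 11 genes of the wider list and 19.5% of all genes were apart. A floor at the 25th percentile gave 9 genes of the wider list. The signal filter left 1 member higher in MatDup.dist7, since fewer genes were counted. With the 1.5-fold rule 12 members were higher in PatDup.dist7, with 21 genes of the wider list and 27.9% of all genes apart, and with the 3-fold rule 1 member was higher in MatDup.dist7 cells and 3 in PatDup.dist7 cells, with 0 and 1.37%. Wnt4 stood at -0.63 with its probe set of higher mean level alone, and Axin2 has no value when probe sets under 1 are left out. The members' median ranged from 0.08 to 0.19. Counting each probe set on its own, added after the data were seen, gave 3 members higher in MatDup.dist7 cells and 6 in PatDup.dist7 cells. Cell composition, sex and culture cannot be told apart from genotype with 1 array each. No paired analysis was possible because each group had 1 sample and the labels give no replicate number.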
